A study of Mus musculus with 12 samples.

Results

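The serum controls of a mouse embryonic stem cell series on Foxd3 were compared with each other: untreated Foxd3fl/fl;Cre-ER cells kept on feeders (SL floxed) against wild-type LF2 cells kept without feeders (WT). They were chosen by their labels and make up 4 of the 12 libraries, 2 in each group. Foxd3 encodes a forkhead factor known from pluripotent cells and neural crest. SL floxed cells carry floxed Foxd3 alleles and a Cre recombinase fused to an estrogen receptor domain, received no drug, and grew on irradiated mouse embryonic fibroblasts in medium with 15% fetal bovine serum and leukemia inhibitory factor (LIF). WT cells grew feeder-free in the same serum medium with LIF and received doxycycline for 3 days, at 1 µg/µl in the labels. Line, alleles, Cre-ER, feeders and doxycycline therefore differ together, and their parts in any difference below cannot be told apart. The other serum libraries repeat this layout: SL deleted cells are the Foxd3fl/fl;Cre-ER cells on feeders given 4-hydroxytamoxifen (2 µM, 3 days), and tetON Foxd3 cells carry a doxycycline-inducible Foxd3, received doxycycline and had no feeders. The remaining 4 libraries are Foxd3fl/fl;Cre-ER cells in serum-free medium with LIF, PD0325901 (0.4 µM) and CHIR99021 (3 µM), labelled 2i deleted (given 4-hydroxytamoxifen, 2 µM, 3 days) and 2i floxed (untreated), for which no feeders are named. Foxd3 itself measured 2.15 and 2.47 FPKM in 2i deleted and 2.93 and 2.86 FPKM in 2i floxed libraries, a smaller gap than in serum that does not bear out a loss of Foxd3 in 2i, and these groups are named by their labels only. It measured 1.6 and 1.8 FPKM in SL deleted, against 52.3 and 50.1 FPKM in tetON Foxd3. No label says whether replicates came from separate cultures, and the spread behind each p-value may therefore be technical.

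Irradiated fibroblasts no longer divide but still make RNA, and lysates of a co-culture can hold it. Fibroblasts are known for fibrillar collagens, matrix crosslinking enzymes and, when contractile, smooth muscle actin. Stem cells in serum are known to range from a naive state, marked by factors such as Nanog, Esrrb, Tbx3 and Prdm14, towards a formative or primed state, marked by Fgf5, Pou3f1, Otx2 and the de novo DNA methyltransferases. Antigen presentation genes and GTPases of the guanylate-binding family are known targets of interferons, which act through STAT and IRF factors at GAS and ISRE motifs. In bulk RNA, fewer cells of a type and less RNA per cell cannot be told apart.

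Expression is given as FPKM (fragments scaled to transcript length and library total), scaled by the median of ratios. The SL and overexpression tables were deposited separately. Over 10360 genes with more than 200 mean reads in both, the FPKM worth of a read share differed between the tables by a median log2 of 0.05 (median absolute deviation 0.03), and 12 genes were off by more than 1 log2. Scaling factors of the 4 libraries lay between 0.985 and 1.01, and 11564 to 11835 genes per library reached 1 FPKM. Library depth is not known. Differences are on the log2(FPKM + 1) scale, which understates the change of low genes, and a gene was called at an adjusted p under 0.05 in limma.

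Of 12358 genes tested, 2478 (20.1%) were higher in SL floxed libraries than in WT and 2489 (20.1%) were lower. Of these, 810 (6.55%) were higher and 881 (7.13%) lower by at least 1 log2. Without SL floxed replicate 1 the count of lower genes fell to 1608. Over all genes tested the median difference was 0.01 on the log2 scale. Either way 40.2% were called. Both SL floxed libraries lay above both WT libraries for 36.9% of tested genes and below them for 36.5%. SL deleted against tetON Foxd3, called the other serum pair below, which shares no library with this comparison but has Foxd3 itself changed, called 2766 of 12344 genes higher (22.4%) and 2498 lower (20.2%). Leaving out SL deleted replicate 1 reduced these to 1469 and 1079, and leaving out SL deleted replicate 2 to 1657 and 1276. Among 12096 genes tested in both, 1717 were higher in both, 70.2% of those higher in SL floxed and 64.6% of those higher in SL deleted. Another 1496 were lower in both, 63.7% and 61.3% of the lists. Foxd3 (ENSMUSG00000067261, chromosome 4, 99656299 to 99658622, GRCm38), which neither control was meant to alter, measured 4.47 and 4.75 FPKM in the SL floxed libraries, against 10.6 and 14.3 FPKM in the WT libraries. It was lower in both SL floxed libraries, with a log2 difference of -1.25 (SE 0.19) and a limma adjusted p of 0.00155.

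**Figure D1:**
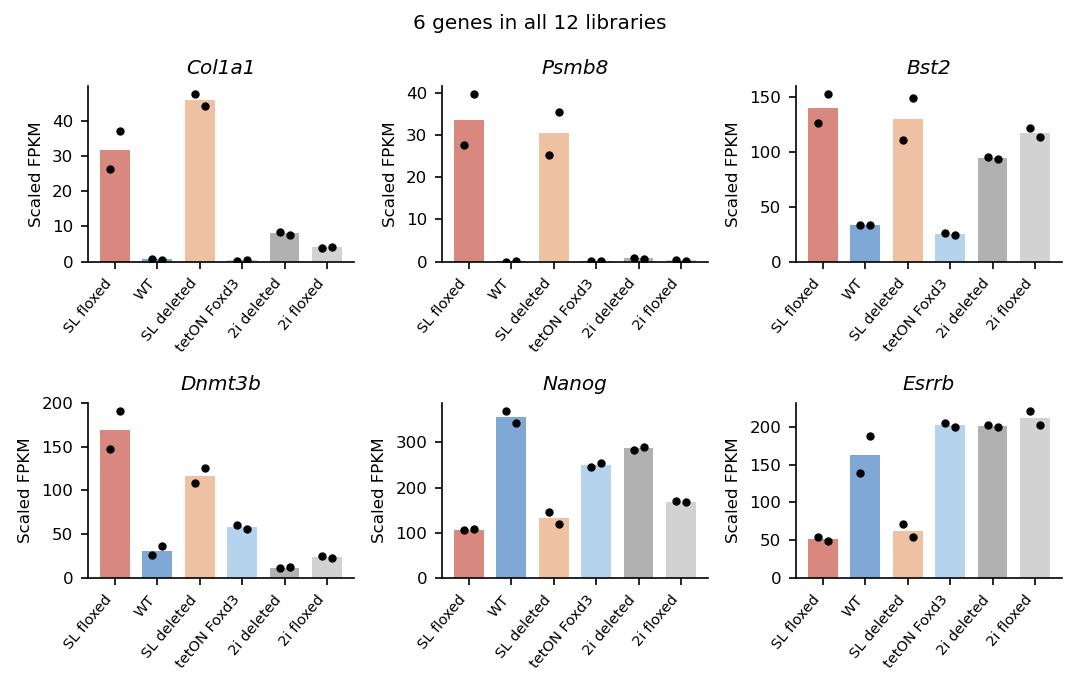
Scaled FPKM of 6 genes in all 12 libraries; bars are group means, points the 2 libraries, with SL floxed beside WT and SL deleted beside tetON Foxd3. Col1a1 and Psmb8 stood highest in the 4 feeder libraries, Bst2 was high in all Foxd3fl/fl;Cre-ER libraries, and Nanog and Esrrb stood lower in SL floxed than in WT.

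Fibroblast genes formed one of the clearest blocks. Of 16 tested fibroblast markers, 14 were higher in SL floxed libraries and 0 lower, with a median log2 difference of 2.24 against 0.01 over all genes. In SL deleted against tetON Foxd3 15 of 16 were higher and 0 lower (median 2.84). With a pseudocount of 0.1 the first median was 4.63. Col1a1, a chain of type I collagen, measured 26.2 and 37.1 FPKM in the SL floxed libraries, against 0.725 and 0.596 FPKM in the WT libraries. Its log2 difference was 4.28 (SE 0.21), and the SL floxed libraries lay far above the WT libraries. Col1a2, the partner chain (ENSMUSG00000029661, chromosome 6, 4504814 to 4541544, GRCm38), measured 26.7 and 35.6 FPKM in the SL floxed libraries, against 0.0715 and 0.0737 FPKM in the WT libraries. Fbln2, a fibulin of elastic and basement membrane matrix, measured 32.4 and 45.3 FPKM in the SL floxed libraries, against 1.19 and 0.696 FPKM in the WT libraries. Type III and type VI collagen were near or at 0 without feeders: Col3a1 measured 7.28 and 7.14 FPKM in the SL floxed libraries, against 0 and 0 FPKM in the WT libraries. Col6a1 measured 8.65 and 7.27 FPKM in the SL floxed libraries, against 0.0311 and 0.0721 FPKM in the WT libraries. Prrx1, a homeobox factor of mesenchyme, measured 3.52 and 3.4 FPKM in the SL floxed libraries, against 0 and 0 FPKM in the WT libraries, where it was listed at 0. Postn, Col5a2, Col6a2, Col6a3, Fbn1, Col5a1, Thy1 and Pdgfrb also rose, by log2 differences of 1.39 (Pdgfrb) to 2.71 (Col5a2). Twist1 and Prrx2, mesenchymal factors too, did not pass the test: Twist1 measured 2.1 and 2.21 FPKM in the SL floxed libraries, against 2.4 and 1.92 FPKM in the WT libraries, and Prrx2 measured 4.14 and 3.5 FPKM in the SL floxed libraries, against 4.18 and 4.0 FPKM in the WT libraries.

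Not every defining fibroblast gene was present. Dcn, the matrix proteoglycan decorin, was at 0.227 and 0.143 FPKM in SL floxed libraries and listed at 0 in both WT libraries. Lum, the related lumican, was at 0.0819 and 0.0161 FPKM in SL floxed libraries and listed at 0 in WT. Both stayed under the level needed for the test, as did Fbln5, Twist2, Tcf21 and Fap. The summed FPKM of the whole list was 161 and 195 in SL floxed libraries, against 16 and 13.5 in WT. It was 280.4 and 274 in SL deleted libraries, against 12.2 and 12.8 in tetON Foxd3. In 2i it was 22.5 and 22.5 in libraries labelled deleted and 19.6 and 22.5 in 2i floxed. The 2i sums of the same line were above those of WT and far below those on feeders; medium changed together with feeders there. Col1a1 was not at 0 in 2i: it measured 8.36 and 7.65 FPKM in 2i deleted and 3.77 and 4.29 FPKM in 2i floxed libraries.

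**Figure D2:**
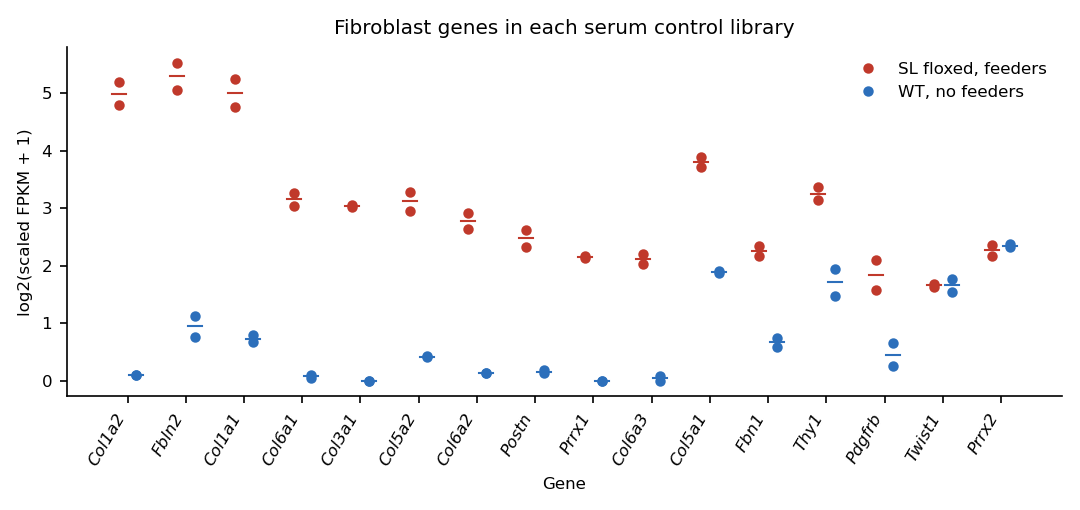
The tested fibroblast markers on the log2(scaled FPKM + 1) scale, ordered by their difference; points are libraries and short lines group means, SL floxed left of WT. The groups do not overlap for any gene but Twist1 and Prrx2, at the right end.

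Matrix and contractile genes rose beside them. In the matrix list 18 of 23 tested genes were higher and 1 lower (median log2 1.54, or 2.40 with a pseudocount of 0.1). The other serum pair gave 18 higher and 0 lower of 23 (median 1.70). Thbs1, the adhesive matrix protein thrombospondin, measured 39.4 and 47.9 FPKM in the SL floxed libraries, against 0.267 and 0.799 FPKM in the WT libraries. Bgn, the proteoglycan biglycan, measured 67.7 and 79.8 FPKM in the SL floxed libraries, against 1.69 and 1.67 FPKM in the WT libraries; it lies on chromosome X and rose by 4.80 (SE 0.16) while most X-linked genes stood lower. Lox, the collagen crosslinking enzyme, measured 17 and 18.1 FPKM in the SL floxed libraries, against 0.0114 and 0.0147 FPKM in the WT libraries. Tnc, tenascin C, measured 13.5 and 14 FPKM in the SL floxed libraries, against 0 and 0.0189 FPKM in the WT libraries. The lower gene of the list was the protease inhibitor Timp1, which is also X-linked; it was named after its values were seen. In the contractile list 12 of 13 were higher and 0 lower (median 2.17). In the other serum pair the list gave 12 higher and 0 lower of 13 (median 1.60). Acta2, smooth muscle actin, measured 59.8 and 55.3 FPKM in the SL floxed libraries, against 0.106 and 2.23 FPKM in the WT libraries. Tagln, the actin-binding transgelin, measured 120.4 and 90.7 FPKM in the SL floxed libraries, against 0.985 and 5.87 FPKM in the WT libraries. Cnn1, a calponin, measured 27.6 and 25.2 FPKM in the SL floxed libraries, against 0.0890 and 0.301 FPKM in the WT libraries. The WT libraries differed from each other for Acta2 and Tagln, and both stayed below the SL floxed ones. Myl9, a myosin light chain, measured 78.7 and 58.9 FPKM in the SL floxed libraries, against 1.13 and 4.31 FPKM in the WT libraries. Its promoter is printed below because it holds a CArG box, the site of serum response factor, in capitals (RefSeq, GRCm38.p6, chr2:156775214-156775513, plus strand).
Myl9: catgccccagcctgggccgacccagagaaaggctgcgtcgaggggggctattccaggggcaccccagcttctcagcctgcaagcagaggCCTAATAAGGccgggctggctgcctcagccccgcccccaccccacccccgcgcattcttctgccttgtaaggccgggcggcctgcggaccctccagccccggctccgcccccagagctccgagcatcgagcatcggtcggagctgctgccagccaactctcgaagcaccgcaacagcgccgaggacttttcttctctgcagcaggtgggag
A CArG box was in the promoters of 2 of the 10 higher contractile genes with a promoter entry (Myl9 and Cnn2) and in 0 of 10 higher fibroblast genes. It was in 1.60% of the 9003 tested genes searched, counted by gene, and in 1.63% of all 32851 promoters of the table. Promoters run from 250 bases before to 50 after a gene start, and both strands were searched. Such a match is a description of letters, not a site of binding. Only full matches were counted, so a promoter without a match may still hold a variant of the box.

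Secreted factors that feeders are known to supply moved less evenly: 13 of 20 tested were higher and 3 lower (median 1.07, or 2.91 with a pseudocount of 0.1). SL deleted against tetON Foxd3 gave 17 higher and 2 lower of 20 (median 1.77). Igfbp3, an insulin-like growth factor binding protein, measured 44.1 and 43.1 FPKM in the SL floxed libraries, against 3.43 and 4.12 FPKM in the WT libraries. Igf2, the growth factor itself, measured 11.8 and 10.1 FPKM in the SL floxed libraries, against 0.429 and 0.874 FPKM in the WT libraries. Ctgf and Cyr61, matricellular targets of YAP, measured 58.3 and 58.3 FPKM in the SL floxed libraries, against 7.2 and 9.4 FPKM in the WT libraries for Ctgf, and 39.1 and 40.7 FPKM in the SL floxed libraries, against 3.3 and 5.34 FPKM in the WT libraries for Cyr61. In 2i deleted libraries, where no feeders are named, Cyr61 reached 57.8 and 51.6 FPKM. The 3 lower members were Bmp4, Sfrp1 and Vegfa, named after their values were seen; Bmp4 had a limma adjusted p of 0.0338, which became 0.189 without SL floxed replicate 2 and 0.0898 without WT replicate 2.

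Markers of other cells that a feeder layer could hold did not move as one. Of the macrophage list only Cd68 was tested; it measured 23.2 and 21.7 FPKM in the SL floxed libraries, against 36.2 and 22.8 FPKM in the WT libraries and did not pass. The endothelial list stood lower, with 4 of 5 tested genes down and 0 up (median -0.78); Eng, a TGF-beta co-receptor also made by stem cells, measured 7.55 and 7.42 FPKM in the SL floxed libraries, against 17.9 and 19.5 FPKM in the WT libraries. Among keratinocyte genes, 2 of 3 were higher and 1 lower, with Krt7 at 2.46 and 2.35 FPKM in the SL floxed libraries, against 0.229 and 0.747 FPKM in the WT libraries. Among skeletal muscle genes, 2 of 4 were higher and 1 lower, with the cardiac actin Actc1 at 19.9 and 16.3 FPKM in the SL floxed libraries, against 0 and 0.0725 FPKM in the WT libraries. Among cartilage and bone genes, 2 of 6 were higher and 1 lower, with Sox9, a chondrocyte regulator, at 2.86 and 3.34 FPKM in the SL floxed libraries, against 0.0370 and 0.00795 FPKM in the WT libraries. Krt7, Actc1 and Sox9 all rose, and each of their lists also held a fall. The lowest log2 difference was -0.57 in the keratinocyte list, -1.29 in the skeletal muscle list and -2.16 in the cartilage and bone list. Of 19 p53 targets, 4 were higher and 4 lower (median 0.05), near the background of 20.1% each way. Cdkn1a, the p53-induced cell cycle inhibitor, rose to 53.1 and 53.5 FPKM in the SL floxed libraries, against 32.9 and 29.6 FPKM in the WT libraries, while Gdf15, a stress-induced cytokine, measured 0.941 and 0.954 FPKM in the SL floxed libraries, against 10.1 and 13.6 FPKM in the WT libraries. Of 3 senescence genes tested, 1 was higher and 1 lower. In SL deleted against tetON Foxd3 the endothelial list gave 1 higher and 2 lower of 5 (median -0.46), the keratinocyte list 2 higher and 1 lower of 3 (median 1.29) and the skeletal muscle list 4 higher and 0 lower of 4 (median 0.87). The cartilage and bone list gave 3 higher and 1 lower of 6 (median 0.52) there, the p53 targets 1 higher and 4 lower of 19 (median -0.03) and the senescence list 2 higher and 0 lower of 3 (median 0.54); the macrophage gene was not called. Single libraries moved the SL floxed against WT medians of these short lists: the keratinocyte median of 1.10 became 0.58 without SL floxed replicate 1. Without SL floxed replicate 2 the skeletal muscle median of 0.57 became 0.36 and the senescence median of 0.22 became 0.13. The p53 and cartilage medians changed sign among the left-out libraries, from -0.12 to 0.17 for p53 and from -0.05 to 0.10 for cartilage and bone.

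Antigen presentation and interferon-response genes formed a second block. Of 13 tested, 11 were higher and 0 lower, with a median log2 of 2.02. In SL deleted against tetON Foxd3 10 of 13 were higher and 0 lower (median 2.29). Gbp2, Gbp2b, Irgm1 and Zbp1 are not members of the list: they are described here because they were among the 15 largest rises, so their values chose them and they add nothing to its count. Gbp2, a guanylate-binding GTPase and the largest rise of all named genes, measured 73.4 and 94.3 FPKM in the SL floxed libraries, against 0.177 and 0.671 FPKM in the WT libraries. Its relative Gbp2b measured 24.9 and 28.2 FPKM in the SL floxed libraries, against 0.101 and 0.463 FPKM in the WT libraries. Irgm1, an immunity-related GTPase, measured 55.8 and 45.6 FPKM in the SL floxed libraries, against 0.665 and 0.678 FPKM in the WT libraries. Psmb8, an immunoproteasome subunit, measured 27.6 and 39.6 FPKM in the SL floxed libraries, against 0 and 0.130 FPKM in the WT libraries. Oasl2, of the oligoadenylate synthetase family, measured 22 and 41.6 FPKM in the SL floxed libraries, against 0.0915 and 0.0681 FPKM in the WT libraries. Zbp1, a sensor of nucleic acids, measured 31.8 and 44 FPKM in the SL floxed libraries, against 0.762 and 0.540 FPKM in the WT libraries. H2-K1, a class I heavy chain, measured 43.8 and 55 FPKM in the SL floxed libraries, against 5.27 and 4.3 FPKM in the WT libraries. Bst2, the membrane protein tetherin, measured 127 and 152 FPKM in the SL floxed libraries, against 33.3 and 33.5 FPKM in the WT libraries. All of these were separated between the groups without overlap, as SL floxed lay above WT for 36.9% of all tested genes. For those among the 15 largest rises, lack of overlap was part of the rule that chose them. Gbp2, Gbp2b and H2-K1 have close paralogs, so reads may be split between copies. B2m, the class I light chain, rose by 0.75 (SE 0.24) with a limma adjusted p of 0.0393, a call lost without SL floxed replicate 1 (0.0855), SL floxed replicate 2 (0.163) or WT replicate 2 (0.202), with no filter on low values (0.120) and without a trend in limma (0.0617). Irf9, a transducer of interferon signals, did not pass: it measured 7.56 and 6.58 FPKM in the SL floxed libraries, against 7.1 and 6.28 FPKM in the WT libraries.

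The promoters of 4 of these genes are shown because they hold interferon motifs. The ISRE searched was GAAANNGAAA and the GAS was TTCNNNGAA, on both strands, with matches in capitals; in Bst2 matches of both motifs touch or overlap. All are RefSeq promoters of GRCm38.p6: Gbp2 at chr3:142620413-142620712 (plus strand), Irgm1 at chr11:48871371-48871670 (minus strand), Bst2 at chr8:71537423-71537722 (minus strand) and Psmb8 at chr17:34197945-34198244 (plus strand).
Gbp2: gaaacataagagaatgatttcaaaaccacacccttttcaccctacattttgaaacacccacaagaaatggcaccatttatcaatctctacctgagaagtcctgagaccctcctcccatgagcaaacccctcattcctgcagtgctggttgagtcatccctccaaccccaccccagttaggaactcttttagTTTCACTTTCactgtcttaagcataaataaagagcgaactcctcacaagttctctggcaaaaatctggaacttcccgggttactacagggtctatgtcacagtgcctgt
Irgm1: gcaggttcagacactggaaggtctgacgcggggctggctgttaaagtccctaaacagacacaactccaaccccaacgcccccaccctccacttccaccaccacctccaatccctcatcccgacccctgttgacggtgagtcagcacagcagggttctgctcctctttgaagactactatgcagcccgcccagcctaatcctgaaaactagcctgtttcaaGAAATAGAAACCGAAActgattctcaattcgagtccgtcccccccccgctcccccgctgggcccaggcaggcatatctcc
Bst2: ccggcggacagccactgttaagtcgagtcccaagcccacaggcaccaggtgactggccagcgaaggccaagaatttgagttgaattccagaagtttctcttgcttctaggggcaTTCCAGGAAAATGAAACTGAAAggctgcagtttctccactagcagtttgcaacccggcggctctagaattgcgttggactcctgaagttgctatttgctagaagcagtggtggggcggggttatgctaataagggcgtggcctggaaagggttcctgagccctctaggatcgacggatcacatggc
Psmb8: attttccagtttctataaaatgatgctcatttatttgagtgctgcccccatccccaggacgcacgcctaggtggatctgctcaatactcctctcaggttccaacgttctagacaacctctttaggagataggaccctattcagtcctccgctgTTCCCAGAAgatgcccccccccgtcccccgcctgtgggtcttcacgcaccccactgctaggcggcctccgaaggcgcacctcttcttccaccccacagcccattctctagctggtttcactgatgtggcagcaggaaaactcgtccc
Gbp2 and Irgm1, chosen by their rise, hold an ISRE, Psmb8 a GAS and Bst2 both. Within the antigen presentation list, an ISRE was in 3 of the 10 higher genes with a promoter entry (B2m, Bst2 and Ifitm3). It was in 3.48% of the 9003 tested genes searched, counted by gene, and in 3.44% of all promoters. A GAS was in 4 of those 10 (Psmb8, Irf1, Bst2 and Ifitm3), against 8.10% of the tested genes searched and 8.30% of all promoters.

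These genes parted in 2i. Psmb8 was at 0.806 and 0.725 FPKM in 2i deleted and 0.427 and 0.155 FPKM in 2i floxed libraries, under 1 FPKM throughout. Gbp2 was low there too, at 2.41 and 2.27 FPKM in 2i deleted and 0.727 and 1.33 FPKM in 2i floxed. Oasl2 was at 0.578 and 0.652 FPKM in 2i deleted and 1.15 and 0.613 FPKM in 2i floxed. Bst2 stayed high, at 95.5 and 93.5 FPKM in 2i deleted and 122 and 113 FPKM in 2i floxed. H2-K1 stood between its SL floxed and WT levels, at 18.9 and 18.7 FPKM in 2i deleted and 24.5 and 23.4 FPKM in 2i floxed. In the other serum libraries Bst2 measured 111 and 149 FPKM in SL deleted, against 26.4 and 24.7 FPKM in tetON Foxd3. Whether the stem cells or the feeders made these transcripts was not measured.

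Core pluripotency genes were split in direction. Of 14 core pluripotency genes, 6 were higher and 5 lower (median -0.03; -0.05 to 0.24 without a single library). The other serum pair gave 6 higher and 4 lower of 14 (median 0.21). Pou5f1, the central pluripotency factor Oct4, measured 574 and 504 FPKM in the SL floxed libraries, against 729.6 and 794 FPKM in the WT libraries. Its log2 difference of -0.50 (SE 0.12) was called (limma adjusted p = 0.0104), but not without SL floxed replicate 2 (0.0714) or WT replicate 2 (0.0802). Sox2, its partner, measured 124 and 123 FPKM in the SL floxed libraries, against 157 and 168 FPKM in the WT libraries, and this call was lost in each of the 4 fits that left out a library (limma adjusted p from 0.0617 to 0.155). Zfp42 (Rex1), a marker of the naive state, measured 163 and 120.1 FPKM in the SL floxed libraries, against 356 and 421 FPKM in the WT libraries. Lin28a, an RNA-binding regulator of let-7, measured 138 and 108 FPKM in the SL floxed libraries, against 53 and 74.4 FPKM in the WT libraries. Utf1 measured 188 and 183 FPKM in the SL floxed libraries, against 114 and 132 FPKM in the WT libraries. Dnmt3l, a cofactor of DNA methylation, measured 79.3 and 67.2 FPKM in the SL floxed libraries, against 154 and 113 FPKM in the WT libraries. Sall4, Lin28b and Dppa4 were called higher by 0.60, 0.64 and 0.57. The Sall4 call was lost without SL floxed replicate 1 (limma adjusted p = 0.143) or WT replicate 1 (0.194), and the Dppa4 call without SL floxed replicate 1 (0.0958). The Lin28b call was lost without SL floxed replicate 1 (0.0610), SL floxed replicate 2 (0.0534) or WT replicate 1 (0.0528). Tcf3 rose by 0.59, and Tdgf1, Dppa2 and Trim28 did not pass. Tdgf1 was called lower without WT replicate 2 (limma adjusted p = 0.0273) and Dppa2 without SL floxed replicate 1 (0.0234). With no filter on low values the Sall4 and Dppa4 calls were lost (0.0826 and 0.0601), and without a trend in limma those of Sox2 and Sall4 (0.0641 and 0.0521). With a replicate block the Sox2 call was lost too (limma adjusted p = 0.0654).

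Naive genes stood lower in SL floxed libraries: 18 of 23 tested were lower and 3 higher, with a median log2 of -1.14. SL deleted against tetON Foxd3 gave 11 lower and 5 higher of 23 (median -0.64). Nanog measured 106 and 108 FPKM in the SL floxed libraries, against 369.7 and 344 FPKM in the WT libraries, a difference of -1.73 (SE 0.11). Tbx3, a T-box factor, measured 4.84 and 3.36 FPKM in the SL floxed libraries, against 39.2 and 39.6 FPKM in the WT libraries. Tcl1, a co-activator of Akt, measured 17.5 and 8.03 FPKM in the SL floxed libraries, against 146 and 140.2 FPKM in the WT libraries. Prdm14, a repressor of methyltransferase genes, measured 2.27 and 2.0 FPKM in the SL floxed libraries, against 25.6 and 18.8 FPKM in the WT libraries. In each of these 4 genes both SL floxed libraries lay under both WT libraries, as they did for 36.5% of all tested genes. Esrrb, a nuclear receptor, measured 53.8 and 49.6 FPKM in the SL floxed libraries, against 139 and 187 FPKM in the WT libraries. Tfcp2l1 measured 16.3 and 9.9 FPKM in the SL floxed libraries, against 55.1 and 58.5 FPKM in the WT libraries. Klf4, a Kruppel-like factor, measured 58.5 and 39.3 FPKM in the SL floxed libraries, against 91.5 and 112 FPKM in the WT libraries. Fgf4, the autocrine growth factor of stem cells, measured 24.7 and 26.4 FPKM in the SL floxed libraries, against 104 and 95.5 FPKM in the WT libraries. Zfp57, which maintains methylation at imprinted regions, measured 81.7 and 56.1 FPKM in the SL floxed libraries, against 257 and 293 FPKM in the WT libraries. Tet2, an enzyme that oxidises methylcytosine, measured 3.96 and 4.71 FPKM in the SL floxed libraries, against 25.7 and 26.3 FPKM in the WT libraries. Klf5, Nr0b1, Fbxo15, Gbx2, Socs3 and Nr5a2 were lower, with log2 differences of -0.85 (Nr5a2) to -1.14 (Klf5), and Bmp4 and Dazl were also called lower. Without SL floxed replicate 2 the Nr5a2 call was lost (limma adjusted p = 0.0618), and the Dazl call was lost without SL floxed replicate 1 (0.0907), SL floxed replicate 2 (0.144) or WT replicate 1 (0.0945). Spp1 and Il6st did not pass. With no filter on low values the calls of Bmp4, Dazl, Nr0b1 and Nr5a2 were lost (limma adjusted p from 0.0551 for Nr0b1 to 0.124 for Dazl), and with the 8 serum libraries fitted together that of Bmp4 (0.0584).

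Dppa3 (Stella), a maternal factor of naive and germ cells, went the other way. It measured 68.4 and 43.2 FPKM in the SL floxed libraries, against 10.0 and 11.7 FPKM in the WT libraries, a log2 difference of 2.23 (SE 0.21). In 2i it reached 268 and 254 FPKM in 2i deleted and 273 and 269 FPKM in 2i floxed libraries, and in serum 113 and 91.3 FPKM in SL deleted, against 1.98 and 2.02 FPKM in tetON Foxd3. Klf2 rose by 0.41 and Stat3 by 0.55; the Klf2 call was lost without SL floxed replicate 2 (limma adjusted p = 0.0817), WT replicate 1 (0.0758) or WT replicate 2 (0.124), with a replicate block (0.0545) or without a trend (0.0592), and the Stat3 call without WT replicate 2 (0.0571).

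The 2i libraries, with no feeders named, differed gene by gene. In 2i floxed libraries of the same line Esrrb reached 221 and 202 FPKM and Tfcp2l1 70.4 and 67.4 FPKM, above the WT values in serum, whereas Nanog was at 169.7 and 169 FPKM and Tet2 at 2.95 and 2.73 FPKM, below the WT values. SL deleted cells, with Foxd3 removed, kept low levels of Nanog (146 and 121 FPKM), against 245 and 255 FPKM in tetON Foxd3, and of Esrrb (70.9 and 54.4 FPKM), against 205 and 200.2 FPKM in tetON Foxd3.

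**Figure D3:**
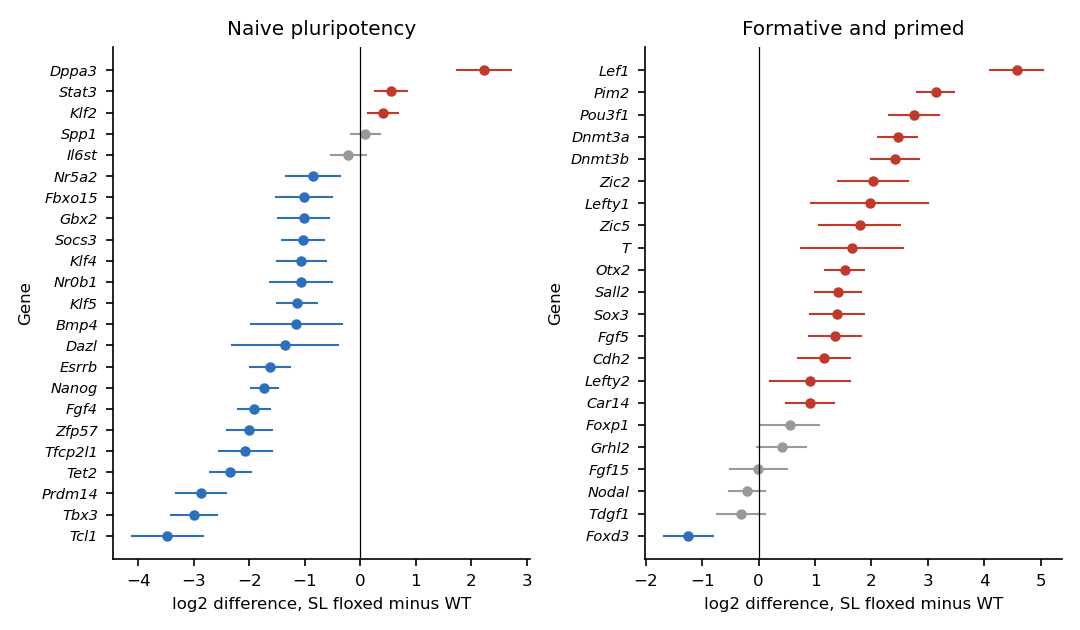
log2 differences of naive and of formative or primed genes, SL floxed minus WT, with 95% intervals from limma; red is called higher, blue called lower and grey not called. Most naive genes lie left of 0, except Dppa3, Stat3, Klf2 and Spp1, and most formative genes lie right of it, except Foxd3, Tdgf1, Nodal and Fgf15.

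Formative and primed genes stood higher: 16 of 22 tested were higher and 1, Foxd3, lower (median 1.39). SL deleted against tetON Foxd3 gave 12 higher and 3 lower of 22 (median 0.75). Dnmt3b, a de novo DNA methyltransferase, measured 147 and 191 FPKM in the SL floxed libraries, against 25.9 and 36 FPKM in the WT libraries. Its partner Dnmt3a measured 68 and 81.8 FPKM in the SL floxed libraries, against 11.8 and 13.6 FPKM in the WT libraries. Pou3f1 (Oct6), a POU factor of the epiblast, measured 12 and 15.3 FPKM in the SL floxed libraries, against 1.01 and 1.33 FPKM in the WT libraries. Pim2, a kinase gene on chromosome X, measured 129 and 128 FPKM in the SL floxed libraries, against 15.4 and 12.1 FPKM in the WT libraries. Lef1, a partner of beta-catenin, measured 30.9 and 22.2 FPKM in the SL floxed libraries, against 0.129 and 0.155 FPKM in the WT libraries. Otx2, a homeobox factor of the epiblast, measured 24.6 and 22.8 FPKM in the SL floxed libraries, against 7.89 and 7.28 FPKM in the WT libraries. Fgf5, the classical epiblast marker, was low throughout, at 2.03 and 1.29 FPKM in the SL floxed libraries, against 0.0420 and 0.0135 FPKM in the WT libraries. Zic2 measured 12.8 and 24.5 FPKM in the SL floxed libraries, against 3.72 and 3.47 FPKM in the WT libraries. Lefty1 and Lefty2, inhibitors of Nodal, were called higher by 1.97 and 0.90. The Lefty1 call was lost without SL floxed replicate 2 (limma adjusted p = 0.0681), and the Lefty2 call without SL floxed replicate 1 (0.165), SL floxed replicate 2 (0.132) or WT replicate 1 (0.230). With no filter on low values the calls of Lefty1, Lefty2 and T were lost (limma adjusted p = 0.0679, 0.147 and 0.0622 in that order), and without a trend that of Lefty2 (0.0716). Nodal, Tdgf1, Grhl2, Foxp1 and Fgf15 did not pass, but Foxp1 was called higher without WT replicate 2 (limma adjusted p = 0.00394) and with a replicate block (0.0249). Dnmt3b was at 11.6 and 12.1 FPKM in 2i deleted and 24.8 and 23 FPKM in 2i floxed libraries, below the serum libraries of either line.

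The wider methylation machinery was split, with 3 of 12 genes higher (Dnmt3a, Dnmt3b and Mbd3, the last named after its values were seen) and 5 lower (median -0.34). The split was opposite in SL deleted against tetON Foxd3, 5 higher and 3 lower of 12 (median 0.18). Tet1, the main stem cell dioxygenase, measured 27.2 and 30.1 FPKM in the SL floxed libraries, against 61 and 73.1 FPKM in the WT libraries. Of 10 germ cell specification genes 6 were lower and 2 higher (median -1.12), whereas SL deleted against tetON Foxd3 gave 5 higher and 3 lower of 10 (median 0.56); the difference between the comparisons was not tested for any list. Kit, the stem cell factor receptor, measured 8.43 and 6.89 FPKM in the SL floxed libraries, against 24.1 and 24.8 FPKM in the WT libraries, and Tfap2c, an AP-2 factor, measured 11.2 and 10.5 FPKM in the SL floxed libraries, against 24.3 and 30.2 FPKM in the WT libraries. Among germline genes known to respond to methylation, 10 of 23 were lower and 2 higher (median -0.43). That median was -0.77 without WT replicate 2, -1.35 at a mean of at least 5 FPKM and -0.70 with a pseudocount of 0.1, and SL deleted against tetON Foxd3 gave 5 higher and 6 lower of 22 (median 0.02). Stag3, a meiotic cohesin subunit, measured 25.1 and 23.5 FPKM in the SL floxed libraries, against 95.9 and 80.1 FPKM in the WT libraries. Hormad1, a meiotic axis protein, measured 15 and 13 FPKM in the SL floxed libraries, against 76.7 and 53.7 FPKM in the WT libraries. The 2-cell-like list had 2 of 5 lower and 0 higher, all at low level; Zscan4c measured 2.04 and 1.62 FPKM in the SL floxed libraries, against 3.52 and 4.54 FPKM in the WT libraries, and reads of the Zscan4 copies cannot be assigned with certainty. The list's median of -0.59 was -0.30 without SL floxed replicate 2, -0.38 without WT replicate 2, -0.91 with a pseudocount of 0.1 and 0.08 at a mean of at least 5 FPKM. In the other serum pair the list gave 5 higher and 0 lower of 5 (median 1.79).

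Signalling targets moved in several directions. For the LIF and STAT3 pathway, 7 of 12 tested were lower and 2 higher (median -0.69). Socs3, its feedback inhibitor, measured 39.9 and 31.8 FPKM in the SL floxed libraries, against 83.2 and 66 FPKM in the WT libraries. Pim3, a kinase gene, measured 35.9 and 32.2 FPKM in the SL floxed libraries, against 60.6 and 66 FPKM in the WT libraries. Of 15 FGF and ERK targets 6 were higher and 2 lower (median 0.51). Fos, an immediate early factor, measured 21.8 and 34.7 FPKM in the SL floxed libraries, against 2.75 and 1.36 FPKM in the WT libraries. Dusp5, an ERK phosphatase, measured 31.5 and 27.4 FPKM in the SL floxed libraries, against 4.13 and 3.24 FPKM in the WT libraries. Wnt targets stood higher, 7 of 8 with 0 lower (median 1.59); Axin2, the feedback inhibitor, measured 12.5 and 15.3 FPKM in the SL floxed libraries, against 1.12 and 2.13 FPKM in the WT libraries, and Sp5 measured 4.9 and 4.01 FPKM in the SL floxed libraries, against 0.228 and 0.343 FPKM in the WT libraries. YAP and SRF targets were higher for 11 of 16 and lower for 0 (median 0.89), with Srf itself at 43.8 and 42.6 FPKM in the SL floxed libraries, against 10.6 and 11.7 FPKM in the WT libraries. BMP targets gave 2 higher and 3 lower of 9; Id1 measured 32.8 and 30.0 FPKM in the SL floxed libraries, against 70.0 and 71.2 FPKM in the WT libraries, while Id3 measured 31.2 and 27.2 FPKM in the SL floxed libraries, against 5.36 and 14.3 FPKM in the WT libraries. Nodal and activin targets gave 4 higher and 1 lower of 9, with Smad7, an inhibitory Smad, at 5.97 and 4.57 FPKM in the SL floxed libraries, against 17.4 and 25.9 FPKM in the WT libraries. The Nodal median was -0.21 (-0.04 without WT replicate 1, -0.12 without WT replicate 2 and -0.14 without SL floxed replicate 1), below 0 although more members were called higher. The BMP median of -0.07 ran from -0.19 to 0.11 without a single library. In SL deleted against tetON Foxd3 the LIF list gave 4 higher and 4 lower of 12 (median -0.34), the FGF list 12 higher and 0 lower of 15 (median 1.05) and the Wnt list 6 higher and 0 lower of 8 (median 1.48). The YAP and SRF list gave 10 higher and 1 lower of 16 (median 0.90) there, the BMP list 2 higher and 4 lower of 9 (median 0.14) and the Nodal list 0 higher and 2 lower of 9 (median -0.38).

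In the list of neural crest and epithelial-mesenchymal genes 11 of 12 were higher and 1, Zeb1, lower (median 1.19, or 1.88 with a pseudocount of 0.1; Zeb1 was named after its values were seen). SL deleted against tetON Foxd3 gave 10 higher and 1 lower of 12 (median 1.25). The list pools epithelial with mesenchymal genes, so its count and median give no direction between these states. Epcam, an epithelial adhesion molecule, measured 143 and 159.7 FPKM in the SL floxed libraries, against 61.7 and 58 FPKM in the WT libraries. Cldn6, a tight junction claudin of pluripotent cells, measured 67.9 and 61.4 FPKM in the SL floxed libraries, against 6.82 and 9.83 FPKM in the WT libraries, and Cldn7 measured 61.7 and 59.4 FPKM in the SL floxed libraries, against 7.61 and 5.05 FPKM in the WT libraries. Cdh11, a mesenchymal cadherin, measured 2.84 and 2.83 FPKM in the SL floxed libraries, against 0.204 and 0.340 FPKM in the WT libraries. Krt8, a simple-epithelial keratin in the trophectoderm list, measured 92.4 and 71.4 FPKM in the SL floxed libraries, against 13.1 and 17.2 FPKM in the WT libraries. Its partner Krt18 measured 79.3 and 66.1 FPKM in the SL floxed libraries, against 7.37 and 11.5 FPKM in the WT libraries. Of the whole trophectoderm list 4 of 10 tested were higher and 3 lower (median 0.45). This median was 0.76 without WT replicate 1, 0.26 without WT replicate 2 and 2.36 at a mean of at least 5 FPKM, and SL deleted against tetON Foxd3 gave 8 higher and 0 lower of 10 (median 1.77). Neural genes gave 4 higher and 2 lower of 7: Nes, the filament nestin, measured 31.4 and 33.7 FPKM in the SL floxed libraries, against 1.12 and 1.58 FPKM in the WT libraries, whereas Sox1, the neural plate factor, measured 0.228 and 0.362 FPKM in the SL floxed libraries, against 2.06 and 2.34 FPKM in the WT libraries. Mesendoderm genes gave 4 higher and 0 lower of 6, with Fgf8 at 4.02 and 3.29 FPKM in the SL floxed libraries, against 0.0556 and 0.274 FPKM in the WT libraries. Primitive endoderm genes gave 2 higher and 5 lower of 11; Lama1, a laminin chain, measured 3.89 and 3.52 FPKM in the SL floxed libraries, against 18.8 and 21.1 FPKM in the WT libraries. Imprinted genes gave 9 higher and 4 lower of 20; Phlda2 measured 132 and 113 FPKM in the SL floxed libraries, against 6.16 and 9.22 FPKM in the WT libraries. Peg10 was listed at 0 in both SL floxed libraries and in 1 of the WT libraries despite high mean reads. Its values are failed estimates, and no difference is given for it. The list counts and medians did not leave out such estimates. Without the genes whose FPKM differed between tables the imprinted median was 0.44 and the trophectoderm median 0.45. In SL deleted against tetON Foxd3 the neural list gave 4 higher and 2 lower of 7 (median 1.09), the mesendoderm list 3 higher and 0 lower of 5 (median 0.64) and the imprinted list 10 higher and 4 lower of 20 (median 0.41). The primitive endoderm list went the other way there, with 5 higher and 3 lower of 10 (median 0.68) against a median of -0.41 in SL floxed against WT, which was 0.20 at a mean of at least 5 FPKM, -0.75 with a pseudocount of 0.1 and -0.13 without the genes whose FPKM differed between tables. With a pseudocount of 0.1 the neural median of 1.40 became 2.89 and the mesendoderm median of 0.68 became 1.60, and without WT replicate 1 the imprinted median of 0.37 became 0.63.

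Ribosomal genes gave 3 higher and 1 lower of 16 (median 0.19), mitochondrial genes 4 and 1 of 25 (median 0.08), and cell cycle genes 5 and 3 of 21 (median 0.06), beside 20.1% of all genes each way. In SL deleted against tetON Foxd3 these lists gave 3 higher and 1 lower of 16 (median 0.13) for ribosomal, 6 higher and 1 lower of 25 (median 0.10) for mitochondrial and 4 higher and 4 lower of 20 (median 0.00) for cell cycle genes. The mitochondrial median ran from -0.02 to 0.19 and the cell cycle median changed sign (-0.04 without WT replicate 2, -0.04 without SL floxed replicate 2) when a library was left out. The lower ribosomal gene was the X-linked Rps4x, at 1042 and 961 FPKM in the SL floxed libraries, against 1436 and 1474 FPKM in the WT libraries, and the lower cell cycle genes included Ccnd3, a D-type cyclin, at 54.4 and 49.2 FPKM in the SL floxed libraries, against 197 and 198 FPKM in the WT libraries. Replication histones gave 3 higher and 0 lower of 4 (median 0.91, or 1.51 with a pseudocount of 0.1), and 1 higher and 1 lower of 4 (median 0.62) in SL deleted against tetON Foxd3. Sterol synthesis gave 8 higher and 2 lower of 17 (median 0.40, or 0.25 without WT replicate 2), with Fdps at 142 and 139.6 FPKM in the SL floxed libraries, against 72.7 and 62.7 FPKM in the WT libraries. The other serum pair gave 11 higher and 1 lower of 17 (median 0.68). ATF4 targets gave 1 higher and 7 lower of 18 (median -0.41, or -0.13 without WT replicate 2), and 1 higher and 3 lower of 18 (median 0.10) in SL deleted against tetON Foxd3. Asns, asparagine synthetase, measured 158 and 165 FPKM in the SL floxed libraries, against 293 and 287 FPKM in the WT libraries. Glycolysis and hypoxia genes gave 12 higher and 1 lower of 22 (median 0.76). This median rests on which WT library is used: it was 1.23 without WT replicate 1 and 0.30 without WT replicate 2. In the other serum pair the list gave 3 higher and 1 lower of 22 (median 0.27). Adm, a hypoxia target, measured 5.82 and 9.24 FPKM in the SL floxed libraries, against 0.688 and 0.130 FPKM in the WT libraries. The list's summed FPKM was 5594 and 6315 in SL floxed libraries, against 4885 and 3328 in WT, so that WT replicate 2 lay well under WT replicate 1. In the other serum libraries it was 4497 and 5013 in SL deleted, against 5576 and 3467 in tetON Foxd3, whose second replicate was likewise the lower.

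**Figure D4:**
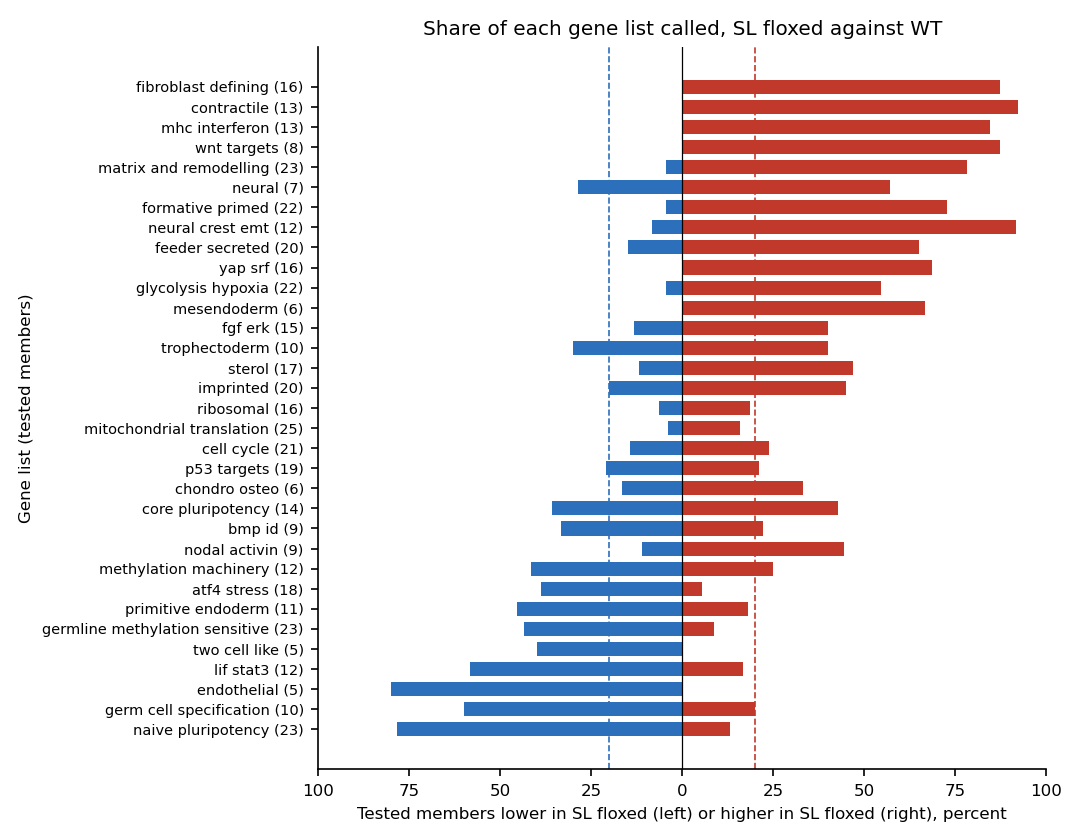
Share of tested members of each gene list called higher (right, red) or lower (left, blue) in SL floxed against WT, for lists with at least 5 tested members; dashed lines mark the 20.1% of all genes called each way. The contractile, epithelial-mesenchymal, fibroblast, Wnt and antigen presentation lists lie farthest to the right, and the endothelial (4 of 5) and naive (18 of 23) lists farthest to the left.

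Esr1, the estrogen receptor alpha gene, was the second largest rise. It measured 50.5 and 52.8 FPKM in the SL floxed libraries, against 0.0896 and 0.0702 FPKM in the WT libraries, with 38 and 32.7 FPKM in SL deleted, against 0.104 and 0.108 FPKM in tetON Foxd3, and with 8.9 and 9.67 FPKM in 2i deleted and 2.59 and 2.16 FPKM in 2i floxed. The Cre-ER fusion of this line holds an estrogen receptor domain; whether transgene reads were counted here was not tested. The largest falls were led by X-linked genes. Xlr5a measured 0.203 and 0.0934 FPKM in the SL floxed libraries, against 55.3 and 49.1 FPKM in the WT libraries, and its near-identical copies Xlr5b and Xlr5c fell by a similar amount, with reads that may be shared. Mid1, a microtubule-associated ubiquitin ligase, measured 1.2 and 1.67 FPKM in the SL floxed libraries, against 97.3 and 83.7 FPKM in the WT libraries. Efhc2 measured 1.52 and 1.48 FPKM in the SL floxed libraries, against 44.1 and 34.5 FPKM in the WT libraries. Autosomal falls included Msln, a membrane glycoprotein of mesothelium, at 0.628 and 1.01 FPKM in the SL floxed libraries, against 41.5 and 34.1 FPKM in the WT libraries. Inhbb, an activin subunit, measured 1.13 and 0.961 FPKM in the SL floxed libraries, against 28.6 and 30.7 FPKM in the WT libraries. Mras, a Ras-related GTPase, measured 4.45 and 1.63 FPKM in the SL floxed libraries, against 59.8 and 76.6 FPKM in the WT libraries, and Tgm2, a transglutaminase, measured 1.3 and 2.19 FPKM in the SL floxed libraries, against 85 and 27 FPKM in the WT libraries, a gene on which the WT libraries differed from each other. In tetON Foxd3, of the feeder-free serum layout but with Foxd3 induced, Mid1 stayed high at 73.8 and 57 FPKM (SL deleted 1.42 and 1.13 FPKM), whereas Xlr5a was at 2.37 and 2.87 FPKM (SL deleted 0.0962 and 0.110 FPKM). Slc13a5, Serpinb6c, Nkx6-3, Pramel6 and Rpl10l complete the 15 largest falls, at -3.46 (Rpl10l) to -4.06 (Slc13a5) on the log2 scale.

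Differences were not spread evenly over the chromosomes. On chromosome 11, 510 of 1031 tested genes (49.5%) were higher in SL floxed libraries and 83 (8.05%) lower, with a median log2 difference of 0.45. On chromosome 8, 66 of 610 genes were higher and 232 (38.0%) lower, with a median of -0.32. On chromosome X, 34 of 481 genes were higher and 290 (60.3%) lower, with a median of -0.68. The other 17 autosomes had medians from -0.08 to 0.06. Their share of higher genes ran from 13.6% to 22.3% and their share of lower genes from 14.8% to 21.3%. Medians in SL deleted against tetON Foxd3 were 0.47 on chromosome 11, -0.25 on chromosome 8 and -0.55 on chromosome X; among the other autosomes its lowest was chromosome 12, at -0.16.

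Each library held its level. Relative to the mean of the 8 serum libraries, the chromosome 11 median was 0.24 and 0.25 in SL floxed, against -0.26 and -0.23 in WT. It was 0.25 and 0.23 in SL deleted, against -0.24 and -0.26 in tetON Foxd3. In 2i deleted it was 0.23 and 0.24, and in 2i floxed 0.33 and 0.34, where no feeders are named. The cause of these levels was not tested. On chromosome 8 the medians were -0.15 and -0.16 in SL floxed, against 0.20 and 0.21 in WT. They were -0.15 and -0.16 in SL deleted, against 0.11 and 0.11 in tetON Foxd3. The 2i deleted libraries gave -0.15 and -0.18 there, and the 2i floxed libraries -0.19 and -0.17. On chromosome X the medians were -0.25 and -0.30 in SL floxed, against 0.38 and 0.32 in WT. They were -0.30 and -0.31 in SL deleted, against 0.25 and 0.29 in tetON Foxd3. For 2i deleted they were -0.34 and -0.35, and for 2i floxed -0.25 and -0.27. In windows of 20 Mb the chromosome 11 difference was positive in all 7, from 0.34 to 0.66, and that of chromosome 8 negative in all 7, from -0.55 to -0.11. All 9 windows of chromosome X were negative, from -1.04 to -0.22, and the 3 windows beyond 120 Mb were the least so. DNA copy number was not measured. Without the genes of these 3 chromosomes 1851 genes were higher and 1876 lower. Taken relative to each gene's chromosome, the fibroblast, antigen presentation and naive medians were 2.22, 2.23 and -1.15. Some other medians moved: Wnt from 1.59 to 1.36, mesendoderm from 0.68 to 0.51 and skeletal muscle from 0.57 to 0.36. The germ cell specification median went from -1.12 to -0.95 and the endothelial median from -0.78 to -0.91.

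**Figure D5:**
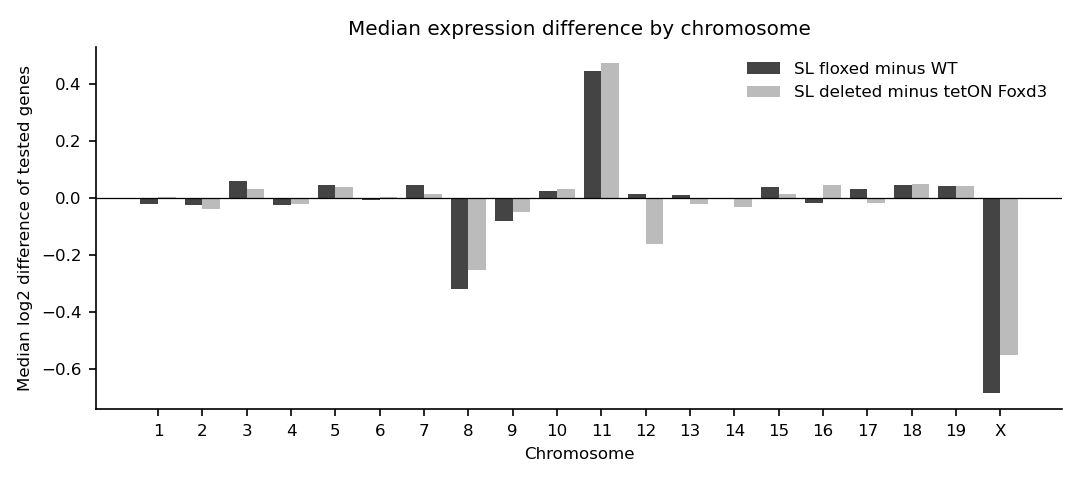
Median log2 difference of tested genes by chromosome, for SL floxed minus WT (dark) and SL deleted minus tetON Foxd3 (light). Chromosome 11 stands at 0.45 and 0.47, chromosome 8 at -0.32 and -0.25 and chromosome X at -0.68 and -0.55, and the other autosomes stay near 0.

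Y-linked transcripts were found in the feeder libraries. Eif2s3y, a translation factor gene of the Y chromosome, was at 0.571 and 0.629 FPKM in SL floxed libraries and listed at 0 in both WT libraries. It was at 1.13 and 0.915 FPKM in SL deleted libraries and listed at 0 in tetON Foxd3, 2i deleted and 2i floxed libraries. Ddx3y, a Y-linked helicase gene, was at 0.320 and 0.281 FPKM in SL floxed libraries and listed at 0 in both WT libraries, with 0.440 and 0.491 FPKM in SL deleted and 0 in tetON Foxd3, 2i deleted and 2i floxed. Both stayed under the level needed for the test. Rlim, an X-linked ubiquitin ligase that promotes X inactivation, stood against the trend of its chromosome, at 65.7 and 73.5 FPKM in the SL floxed libraries, against 30.9 and 33.7 FPKM in the WT libraries.

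Levels were also compared over all 12 libraries, with limits chosen after the values were seen: at least 5 FPKM in every library of one kind and under 1 FPKM in every other. Of 19718 genes, 19 met this for the 4 feeder libraries. These are also the only Foxd3fl/fl;Cre-ER libraries in serum, so feeders cannot be told apart from that line in that medium. They were Col6a1, Col6a2, Col3a1, Lox, Tnc, Psmb8, Tap2, Fosb, Fosl2, Cd44, Cav1, Wt1, Cd274, Aebp1, Gbp3, Epha1, Mgp, Sema3e and 2610528J11Rik. Of them 5 were in the fibroblast, matrix, contractile or secreted lists, which hold 22, 27, 15 and 29 of the 19996 joined genes. Another 2 were in the antigen presentation list, which holds 16. On chromosome X there were 0, and since X held 481 of 12358 tested genes, 0 of 19 is no departure from its share. Aebp1, known in fibroblasts, measured 12.6 and 11.3 FPKM in SL floxed libraries, against 0.227 and 0.398 FPKM in WT. Wt1, a zinc finger factor of mesothelium and kidney, measured 8.0 and 10.7 FPKM in SL floxed libraries, against 0.418 and 0.647 FPKM in WT. Cd44, a hyaluronan receptor, measured 6.31 and 5.89 FPKM in SL floxed libraries, against 0.167 and 0.163 FPKM in WT. The same limits gave 1 gene for the 8 libraries with no feeders named (2410137M14Rik), 1 for the Foxd3fl/fl;Cre-ER libraries (Nod1) and 1 for the tetON Foxd3 and WT libraries (Fgf1).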

How the data were processed

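Polyadenylated-RNA libraries (TruSeq v2, per the labels' protocols) of 12 samples were used, 2 per group. Per the file headers, the authors deposited FPKM per library and a mean read signal per group, in 3 tables; no header or label says how that signal was scaled. Per the submitters' processing notes, GRCm38 and mm10 are the builds named, and the tools are Cufflinks, TopHat2, DESeq2, FastQC and SAMtools, without versions. Library depth cannot be recovered, since low FPKM values showed no steps of whole reads. Column names were matched to the labels, and the medium of each deletion table comes from its name.

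Here the SL and overexpression tables were joined on gene ID (19996 genes, 19513 in GENCODE M21, which gives coordinates on GRCm38) and scaled by the median of ratios over 10795 genes. Genes with a mean of at least 1 FPKM in 1 group were tested on log2(FPKM + 1) with limma-trend (limma 3.58.1, R 4.3.3; 2 residual degrees of freedom; Benjamini-Hochberg over all tested genes; threshold 0.05). With 2 libraries against 2, the smallest 2-sided p of an exact permutation test is 0.3333. The script was checked on simulated data.

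The groups, 40 gene lists and rules were chosen with earlier results of these data known. List members were matched by gene ID, and rows joining several symbols were left out. Some genes are in several lists and count in each, so the lists are not independent. Examples are Lef1 (formative and Wnt), Smad7 (BMP and Nodal) and Bmp4 (secreted and naive). Named genes are Foxd3, the 15 largest rises and falls (called, no overlap, mean of at least 2 FPKM, supported by the mean reads, no predicted genes), every fibroblast, core and naive member, and up to 4 members of each other list by adjusted p; further genes named to fill out a group are given with their values. Replicate numbers are not known to pair samples. Other pseudocounts, filters, scalings, sample sets and left-out libraries were tried. Promoters are RefSeq's (GRCm38.p6). Results of a few list members are not reported here.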

Additional observations from a re-analysis of the deposited data

Results flagged for a closer look

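In 8 of the named genes the libraries moved one way in SL floxed against WT and the opposite way in SL deleted against tetON Foxd3. Both libraries of a group lay on one side in each. The difference between the comparisons was not tested, and Foxd3 itself is changed in the second. The share of all genes by this rule is not given. By calls, among genes tested in both, 23 of 2446 higher in the first were lower in the second (0.94%). Of 2350 lower in the first, 82 were higher in the second (3.49%). Bmp4 had a log2 difference of -1.15 in SL floxed against WT and 1.98 in SL deleted against tetON Foxd3. For Tfap2c, of germ and trophoblast cells, these values were -1.25 and 1.52. For Dnmt3l they were -0.84 and 0.89. For Fbxo15, a target of Oct4, they were -1.01 and 0.85. For the X-linked homeobox gene Rhox9 they were -1.94 and 1.14. For the 2-cell-like genes they were -0.82 and 2.06 (Zscan4c) and -0.71 and 1.79 (Zscan4d). For the myosin light chain gene Myl4 they were -1.29 and 0.72.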

How the results depend on the processing

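Of 111 named genes 99 were called, and each alternative lost from 0 to 10 of the calls it could test and changed the sign of 0 of them. Counts of calls moved beyond 1.5 times in few settings. For SL floxed against WT, a 2-fold minimum gave 810 higher and 881 lower, and the authors' mean reads at 2-fold, with no test, gave 1264 and 1431. Leaving out a library gave 1752 to 2031 higher and 1608 to 2245 lower. For SL deleted against tetON Foxd3, leaving out a library gave 1469 to 2574 higher and 1079 to 2380 lower. Other settings (pseudocount 0.1, no filter, at least 5 FPKM, no scaling, 75th percentile scaling, 8 serum libraries together, no trend, without genes off between tables) stayed within 1.5 times. With no scaling the split was 2648 higher and 2320 lower. Without chromosomes 8, 11 and X, an alternative chosen after seeing the data, it was 1851 and 1876.

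Between the groups compared, deviations of equal replicate numbers correlated at -0.173 (SL floxed and WT) and -0.226 (SL deleted and tetON Foxd3). Groups deposited together, such as SL floxed and SL deleted, were not correlated, so a batch shared by equal numbers was not tested. Psmb8 was higher in replicate 2 of both SL floxed (27.6 and 39.6 FPKM) and SL deleted (25.4 and 35.4 FPKM). Cav1 was not, at 9.06 and 10.5 FPKM in SL floxed and 19.4 and 14.5 FPKM in SL deleted. With the replicate number as a block, which lost the calls of Sox2 and Klf2 and gained that of Foxp1 among named genes, the paired fit called 2356 higher and 2428 lower for SL floxed against WT and 2291 and 2032 for SL deleted against tetON Foxd3.

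The signs that turned in named genes were all of 5 genes that were not called; the cause was not tested. Leaving out a library moved the log2 difference over -0.109 to 0.114 (Twist1), -0.177 to 0.0151 (Prrx2), -0.619 to 0.0232 (Dppa2), -0.231 to 0.219 (Fgf15) and -0.0195 to 0.157 (Irf9). For Fgf15 it was 0.0231 with no scaling and 0.0116 with 75th percentile scaling. Of 518 list medians under an alternative, 19 changed sign, in 9 lists (p53, senescence, cartilage and bone, core pluripotency, 2-cell-like, primitive endoderm, BMP, mitochondrial and cell cycle). The unknown depth, 2 libraries a group and separately deposited tables limit small differences.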
